A study of Mus musculus with 15 samples.

Results

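The 67 genes described here encode the proteins of the cytosolic ribosome, or are named after them. They were taken by symbol from 22180 genes measured in mouse choroid plexus and its tumours: names of the form Rpl or Rps with a number, and Rplp0, Rplp1, Rplp2 and Rpsa, without pseudogene names. Of the 67, 42 belong to the large subunit and 25 to the small one, and 9 carry the name of a paralogue or gene copy (Rpl3l, Rpl6l, Rpl7l1, Rpl10l, Rpl22l1, Rpl32l, Rpl39l, Rps4l and Rps27l). A further 12 genes with such symbols were read only by probe sets shared with another symbol (Rpl10, Rpl12, Rpl13a, Rpl23, Rpl24, Rpl31, Rpl35a, Rpl36, Rpl36a, Rps2, Rps15a and Rps21).

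The choroid plexus is the secretory epithelium of the brain ventricles, and papilloma and carcinoma are its benign and malignant tumours. Total RNA of 5 normal plexuses, 5 papillomas and 5 carcinomas, each set from different mice of a mixed C57Bl/6 and 129 background, was measured on 15 Affymetrix arrays. Normal tissue had the genotype Myc/Myc; p53fl/fl without Cre, papillomas were Atoh1-Cre; Myc/Myc, and carcinomas were Atoh1-Cre; Myc/Myc; p53fl/fl. The Myc/Myc alleles were thus common to all groups, the floxed p53 alleles to normal tissue and carcinoma, and Cre to both tumour types. Cre was placed under Atoh1 regulation, so recombination was limited to cells with a history of that gene. Ages are not given, and tumours were taken when mice fell ill, so age can differ between the groups.

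Ribosomal proteins join the ribosomal RNAs in fixed proportion to form the subunits that read mRNA (small) and join amino acids (large), and excess copies are degraded. Their mRNAs typically begin with a C followed by an unbroken run of pyrimidines, the 5′ terminal oligopyrimidine (TOP) tract, through which growth signalling by the kinase complex mTORC1 controls their translation. Myc is known to raise the transcription of these genes and of the factors that assemble ribosomes. In the choroid plexus, ribosomes serve an epithelium that makes and secretes proteins of the cerebrospinal fluid.

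The start of the transcript is where such a tract lies, so the RefSeq windows around annotated starts (build GRCm38.p6) were searched for a C at the first transcribed base followed by at least 4 further pyrimidines on the gene's strand. A window was given for 52 of the 67 members, and 11 of these (21.2%) held the tract at an annotated start, against 3.01% of 27025 genes. The lines below show 30 bases each, from 10 before the start, with the tract in capitals, for 5 members that differ in their change: Rplp2, Rps18, Rpl14 and Rps6 were called higher in both tumour types and Rps27 in neither.
Rplp2, chr7:141447641-141447670, plus strand: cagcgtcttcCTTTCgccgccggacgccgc
Rpl14, chr9:120571507-120571536, plus strand: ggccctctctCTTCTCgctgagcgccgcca
Rps18, chr17:33955646-33955675, minus strand: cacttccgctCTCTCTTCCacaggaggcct
Rps6, chr4:86857348-86857377, minus strand: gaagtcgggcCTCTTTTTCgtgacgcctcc
Rps27, chr3:90213629-90213658, minus strand: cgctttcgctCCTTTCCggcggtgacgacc
The other 6 members with a tract were Rpl15, Rpl28, Rpl32l, Rpl35, Rpl38 and Rps10. Annotated starts can lie some bases from the start in use, so a window without the tract shows only that these letters were not at the annotated base. The starts of 2 paralogue genes without it, Rpl22l1 and Rps27l, are shown because both genes differed in their change from most members.
Rpl22l1, chr3:28805498-28805527, plus strand: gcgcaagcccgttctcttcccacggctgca
Rps27l, chr9:66946076-66946105, plus strand: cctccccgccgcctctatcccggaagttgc

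A second letter pattern was more common among the members. CCGGAAG, the core of sites bound by ETS-family factors, was found on either strand in 23 of the 52 windows (44.2%), against 9.93% of all genes with a window, where a window runs from 250 bases before to 50 bases after a start. The E-box CACGTG, the letters that Myc and its relatives bind, was found in 4 of 52 (7.69%, against 8.09% of all genes), namely Rpl14, Rpl19, Rpl34 and Rps19. A pyrimidine tract can share letters with CCGGAAG read on the other strand. TATAAA was found in 6 members (11.5%, against 15.7%) and AAGATGGCG, a YY1-type pattern, in 2 (3.85%, against 1.64%), each on either strand. The E-box windows of Rpl19 and Rps19 and the CCGGAAG window of Rpsa, one of the members with the greatest rise, are shown with the pattern in capitals, which reads CTTCCGG where it lies on the other strand.
Rpl19, chr11:98026680-98026709, plus strand: acccagaggacCACGTGaccaaacgccctc
Rps19, chr7:24884782-24884811, plus strand: ggagccgcggcCACGTGcgagcggcaggcc
Rpsa, chr9:120127567-120127596, plus strand: cgccccagctaCTTCCGGcctggggtctgt
The change was also set against the patterns. The median log2 difference from normal was 0.62 in carcinoma and 0.54 in papilloma for the 11 members with a tract, and 0.71 and 0.77 for the 41 without. For the 4 members with CACGTG it was 0.99 and 0.91, and for the 48 without, 0.66 and 0.69. Among the 4, Rpl19 and Rps19 have other, dimmer probe sets, described further on. Those gave -0.23 in carcinoma and -0.13 in papilloma for Rpl19, and 0.52 and 0.47 for Rps19. The CACGTG medians thus depend on the probe sets used, and they were not computed with the other sets. With CCGGAAG the medians were 0.62 and 0.67 (23 members), and without it 0.73 and 0.80 (29 members). These are descriptions of a match in letters, with no test.

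Most ribosomal protein mRNAs were higher in both tumour types than in normal choroid plexus, by somewhat under 2-fold at the median. The median log2 difference over the 67 members was 0.73 in carcinoma and 0.76 in papilloma, beside -0.02 and 0.01 over all genes. In carcinoma 53 members were called higher and 2 lower by limma (adjusted p under 0.05), where 18.7% of all genes were called higher and 19.2% lower. Papillomas had 56 members higher and 1 lower, against 17% and 16.3% of all genes. Of these, 52 members were called higher in both tumour types, a count whose share over all genes is not given here. For 19 of the 67 in carcinoma and 22 in papilloma the rise was at least 2-fold. Over all 22180 genes that count was 979 in carcinoma and 764 in papilloma. Both comparisons use the same 5 normal samples.

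Sample by sample, the median over the 67 members was 10.13, 10.02, 9.81, 9.80 and 9.86 in normal samples 1 to 5. In papillomas 1 to 5 it was 11.04, 11.05, 10.79, 11.26 and 10.92, and in carcinomas 1 to 5 it was 10.95, 11.33, 11.06, 11.24 and 10.99 (log2 values). The lowest tumour lay above the highest normal sample, and the tumour types overlapped. For single members, all 5 carcinoma arrays lay above all 5 normal arrays in 48 of 67 (14.6% of all genes), and all 5 papilloma arrays did in 52 (16.3% of all genes). Normal sample 1 held the highest of the normal values in 39 members and normal sample 5 the lowest in 32.

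**Figure D1:**
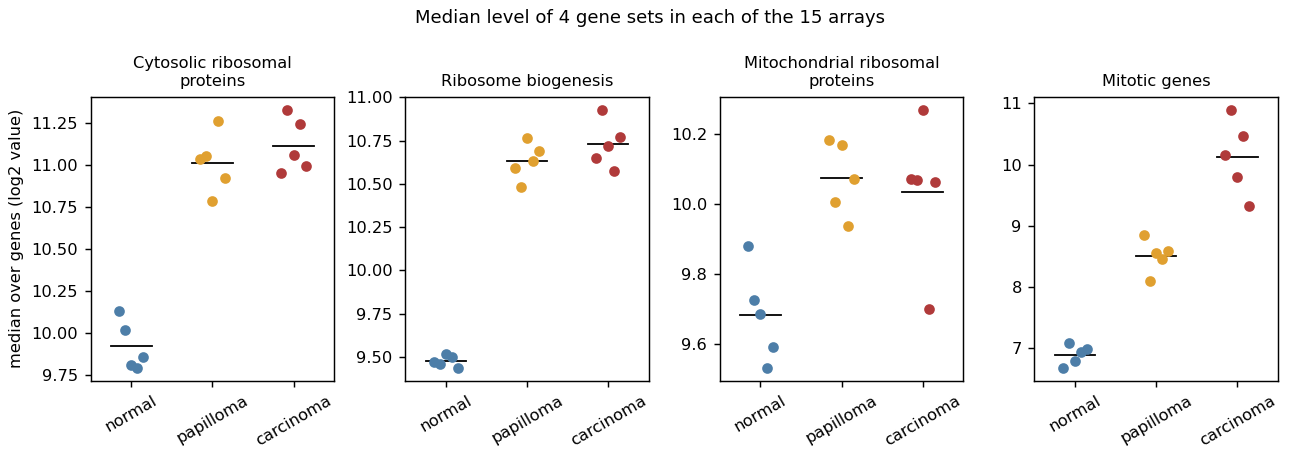
Median log2 value per array over the 67 cytosolic ribosomal proteins, 43 ribosome biogenesis genes, 71 mitochondrial ribosomal proteins and 9 mitotic genes, with 1 point per array and a line at the group mean (vertical axes differ between panels). Every tumour array lies above every normal array in every panel but the mitochondrial one, where the medians overlap, and carcinomas stand above papillomas only for the mitotic genes.

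Beside these results stand facts on the samples. Normal arrays 2 to 5 showed both Xist (10.69 to 12.48) and Y-linked Uty (7.98 to 10.44), so signal of both sexes was present in 4 of the 5 normal samples, while normal sample 1 had Xist at 6.35; the labels do not name pooling. The non-overlapping members above include normal sample 1, in which the tumour arrays were above that sample too. Ttr, the carrier protein that marks choroid plexus epithelium, was at 14.55 to 14.58 in normal samples, 14.42 to 14.49 in papilloma and 14.42 to 14.51 in carcinoma, and the labelled tissue was thus present in all arrays. Myc rose by 0.80 in carcinoma (adjusted p = 0.000166) and 0.60 in papilloma (adjusted p = 0.00228).

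The cell make-up differed between the groups too. All 9 mitotic genes were called higher in carcinoma and in papilloma, with array means of 6.96 to 7.13 in normal samples, 8.38 to 8.86 in papilloma and 9.54 to 10.87 in carcinoma. All 9 multiciliated cell genes were called lower in both, with array means of 10.04 to 10.24 in normal samples, 7.08 to 7.21 in papilloma and 7.09 to 8.14 in carcinoma. Of 10 fibroblast and meningeal genes, 5 were called lower and 1 higher in carcinoma, and 7 lower and 2 higher in papilloma (array means of 10.33 to 10.48 in normal samples, 8.95 to 9.38 and 9.24 to 9.60 in papilloma and carcinoma). Endothelial genes were called higher in 6 of 10 in both, with 1 lower in papilloma, oligodendrocyte genes lower in 6 of 7 (carcinoma) and 4 of 7 (papilloma), and neuronal genes lower in 4 and 2 of 10. Papillomas were uneven in neuronal genes. The array mean was 9.38 in papilloma 2 and 8.54 in papilloma 4, and lower in the other papillomas, down to 7.24. It was 8.14 to 8.76 in normal samples and 7.15 to 7.73 in carcinoma. Epithelial markers were called lower in 6 of 12 in both tumour types, with 1 higher in carcinoma, and macrophage and lymphocyte genes were called higher in 1 of 9 each in carcinoma and in none of 9 in papilloma (limma; no gene of either list rose there at an unadjusted p under 0.05). No array value is 0 on this scale, and the part of these differences in the ribosomal protein result was not tested. In bulk tissue, more cells with much of an mRNA and more of it per cell cannot be told apart.

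The P stalk, the flexible arm of the large subunit that recruits translation factors, rose in all 3 measured proteins. Rplp0, its base, had log2 values of 11.04, 10.87, 10.79, 10.59 and 10.78 in normal samples 1 to 5, 12.52, 12.44, 12.54, 12.55 and 12.58 in papillomas, and 12.45, 12.62, 12.68, 12.56 and 12.59 in carcinomas. The groups of tumours lie together and more than 1 log2 unit above the highest normal value. Rplp0 rose by 1.77 in carcinoma (SE 0.08, 3.4-fold, adjusted p = 1.29e-10) and by 1.71 in papilloma (SE 0.08, 3.27-fold, adjusted p = 1.65e-10). By the chosen sets its stalk partners rose less: Rplp1 by 0.88 and 0.85, and Rplp2 by 0.88 and 0.75. An Rplp2 set shared with Snora52 had means of 12.42 in normal samples, 13.73 in papilloma and 13.81 in carcinoma. The Rplp0 probe set is one of those whose place on the array is in doubt, and its other set, described further on, gave 0.62 and 0.95. The order of the stalk proteins by size of rise thus depends on the probe sets used.

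Rpsa, a small subunit protein also known as the laminin receptor precursor, rose second most in papilloma. Its values were 11.44, 11.13, 11.10, 10.99 and 11.07 in normal samples, 12.75, 12.65, 12.68, 12.81 and 12.65 in papilloma, and 12.73, 12.80, 12.76, 12.97 and 12.63 in carcinoma. No tumour value came near the normal ones. The rise was 1.63 in carcinoma (SE 0.09, adjusted p = 8.93e-10) and 1.56 in papilloma (SE 0.09, adjusted p = 1.5e-09), and a second Rpsa probe set gave 1.57 and 1.64. Rps6, the substrate of S6 kinase below mTORC1, moved little by its chosen set. That set was at 13.80 to 13.88 in normal samples, 14.02 to 14.11 in papilloma and 14.06 to 14.13 in carcinoma, without overlap of tumours and normal tissue. The difference of the chosen Rps6 set was 0.25 in carcinoma (SE 0.05, adjusted p = 0.000907) and 0.24 in papilloma (SE 0.05, adjusted p = 0.00158). A dimmer set shared with the pseudogene name Rps6-ps4 had means of 7.52 in normal samples, 8.53 in papilloma and 8.32 in carcinoma. The size of the Rps6 difference thus depends on the probe set.

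**Figure D2:**
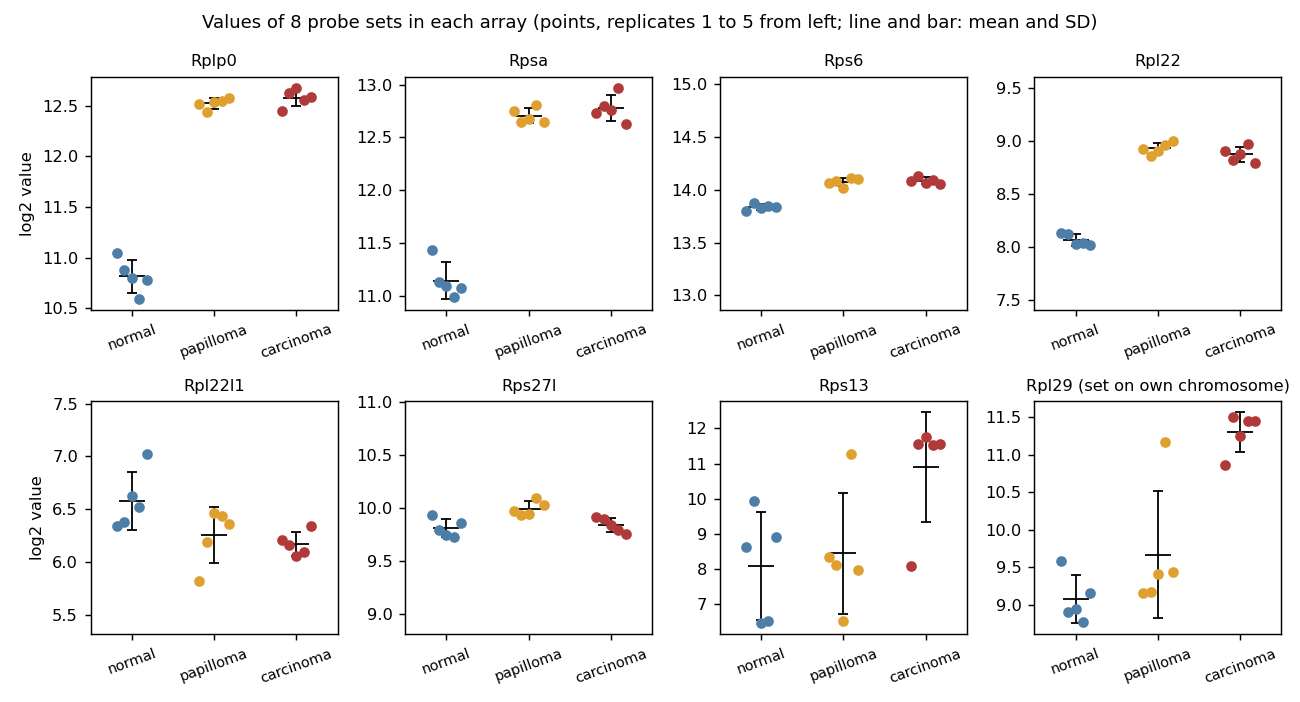
Log2 value of 8 probe sets in each array, by group, with points for replicates 1 to 5 and the mean and SD beside them. For Rplp0 and Rpsa every tumour array lies over 1 log2 unit above every normal array. For Rps6 the tumour means lie 0.24 to 0.25 above the normal mean. Rpl22 rises while its paralogue Rpl22l1 does not, and Rps13 and the second Rpl29 set show separate levels within groups.

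The small subunit as a whole rose in 20 of 25 members in carcinoma and 22 of 25 in papilloma (medians 0.88 and 1.01), and the large subunit in 33 and 34 of 42 (medians 0.66 and 0.72). The difference between the subunits was not tested. Besides Rpsa, the largest rises of the small subunit in papilloma were Rps18, which sits at the head of the subunit (1.39, SE 0.07), Rps12 (1.36, SE 0.07) and Rps26, at the mRNA exit channel (1.29, SE 0.07). In carcinoma these changed by 1.32, 1.30 and 1.26. Rps12 was at 10.75 to 11.08 in normal samples, 12.19 to 12.25 in papilloma and 12.10 to 12.22 in carcinoma, with the smallest spread of any member among papillomas (SD 0.02). Its 8 probe sets gave 1.22 to 1.39 in carcinoma and 1.30 to 1.43 in papilloma, though 6 of them hold identical values and count as 1 measurement.

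Proteins at the mRNA channel and decoding site (Rps3, Rps15, Rps23 and Rps26) were called higher in 3 of 4 in carcinoma and 4 of 4 in papilloma, at differences of 0.30 to 1.29. Large subunit proteins at the exit tunnel, where the new chain leaves the ribosome, were called higher in 7 of 8 in both tumour types, with medians of 0.78 and 0.72. Among them Rpl23a, the docking site for factors that meet the nascent chain, rose by 1.30 in carcinoma (SE 0.10, adjusted p = 3.61e-08) and 1.11 in papilloma, and Rpl39, a small tunnel protein on the X chromosome, measured 0.09 (adjusted p = 0.441) and 0.05 (adjusted p = 0.68). Rps4x, the other measured X-linked member, rose by 1.07 and 1.11. Rpl10a, the protein of the mobile L1 stalk at the E site, rose by 1.16 and 1.26.

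Further large rises of the large subunit were Rpl32 (1.28 in carcinoma, 1.22 in papilloma), Rpl13 (1.02 and 1.32) and Rpl14 (1.21 and 1.22). Rpl32 measured 12.48, 12.37, 12.15, 12.13 and 12.26 in normal samples, 13.50, 13.47, 13.54, 13.57 and 13.38 in papilloma, and 13.40, 13.51, 13.35, 13.71 and 13.84 in carcinoma. The tumour arrays were all above the normal ones. Of 14 measured members whose human counterparts are mutated in Diamond-Blackfan anaemia, an inherited failure of red cell production, 12 were called higher in carcinoma and 13 in papilloma (medians 0.67 in both). The first gene found in that disease, Rps19, rose by 1.16 (SE 0.08, adjusted p = 2.42e-08) and 1.05 (SE 0.08, adjusted p = 8.45e-08).

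**Figure D3:**
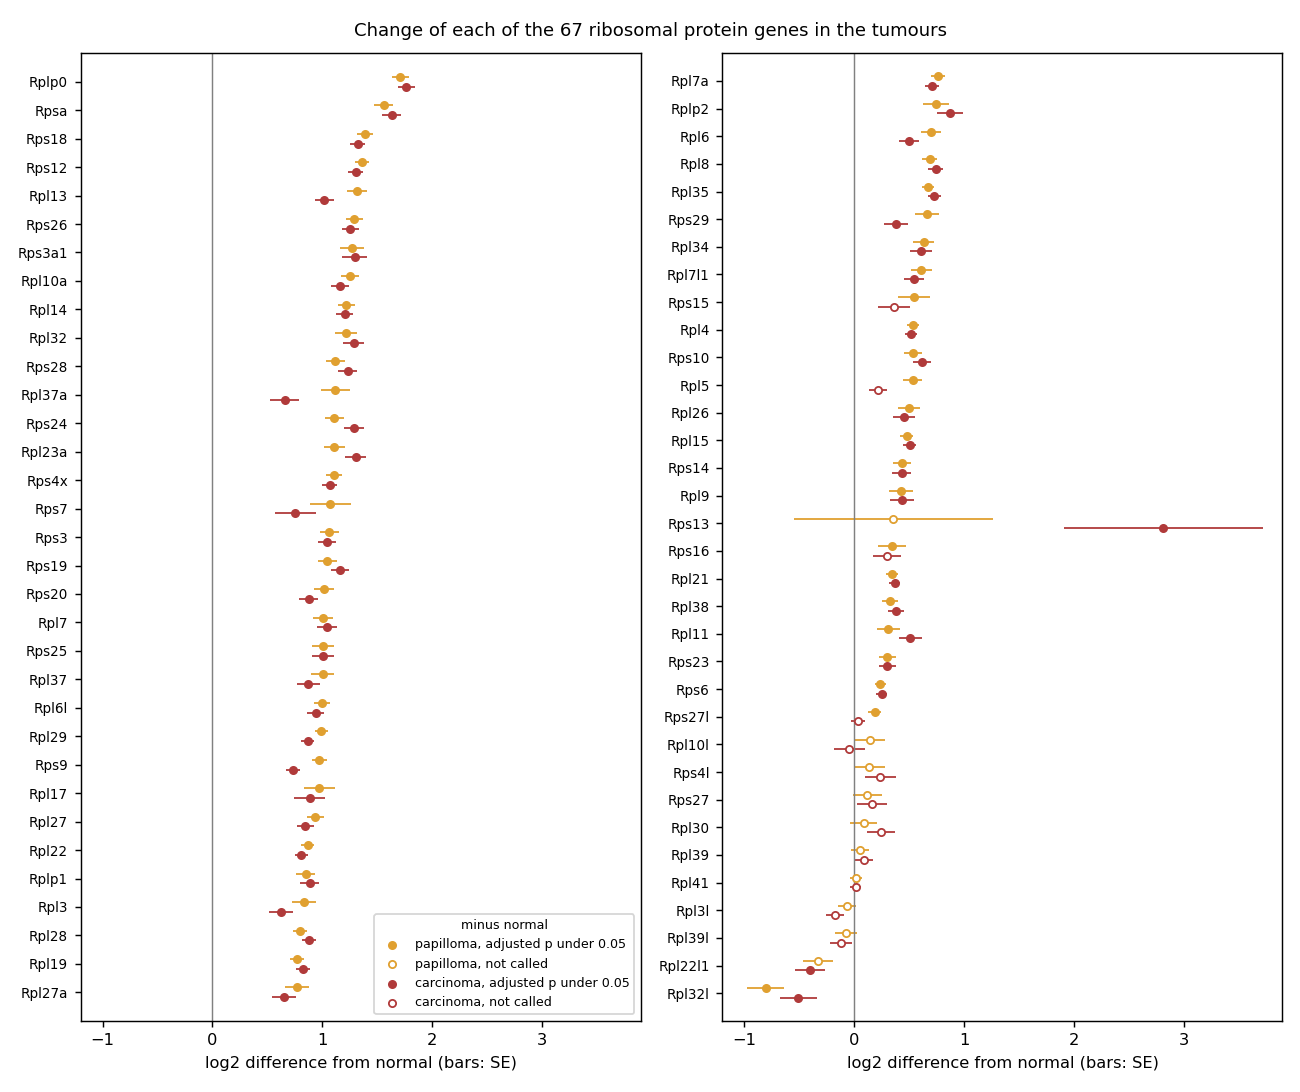
Log2 difference from normal tissue (with SE) for each of the 67 members in papilloma and carcinoma, ordered by the papilloma value; filled points passed an adjusted p of 0.05. Most members lie between 0.3 and 1.4 in both tumour types, 8 were called in neither tumour type, and Rps13 stands apart with a wide error.

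The 5S RNP proteins Rpl5 and Rpl11 carry 5S RNA into the large subunit. When unassembled, they bind and inhibit Mdm2, the ubiquitin ligase of p53. By the brightest single-symbol probe set of each gene, both had smaller differences than most members. Rpl5 was at 7.83, 7.72, 7.77, 7.75 and 7.43 in normal samples, 8.15, 8.12, 8.38, 8.15 and 8.35 in papilloma, and 7.96, 7.90, 8.02, 7.89 and 7.82 in carcinoma. Papillomas were above both other groups, and carcinomas overlapped normal tissue. Rpl5 was 0.53 higher in papilloma (SE 0.08, adjusted p = 0.000107) and 0.22 higher in carcinoma (SE 0.08, adjusted p = 0.0523). The carcinoma value passed the threshold under 8 alternatives: array weights, quantile normalization, a common median, dim genes left out, chromosome shifts removed, sets with several symbols, and the omission of normal sample 1 or carcinoma 5 (0.15 to 0.25 over all single-array omissions, adjusted p from 0.0384 to 0.145). The brighter set shared with another symbol gave 0.78 in carcinoma (limma, adjusted p = 0.0032) and 1.19 in papilloma (adjusted p = 0.000102). The size of the Rpl5 difference thus depends on the probe set. Rpl11 rose by 0.51 in carcinoma (adjusted p = 0.000982) and 0.31 in papilloma (adjusted p = 0.0328), where leaving out any of 7 arrays took the adjusted p to as much as 0.0907.

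Their partner in that pathway moved the other way. Mdm2 fell by 1.07 on the log2 scale in carcinoma (adjusted p = 9.33e-06) and by 0.67 in papilloma (adjusted p = 0.00095), and Mdm4, its relative, measured -0.12 and -0.24 (adjusted p = 0.561 and 0.228). Cdkn1a, the p53 target that encodes p21, fell by 0.80 on the log2 scale in carcinoma (adjusted p = 0.00571) and rose by 2.07 in papilloma (adjusted p = 1.03e-06). Cdkn2a, whose Arf product also binds Mdm2, rose by 1.57 in carcinoma (adjusted p = 0.00702) and measured 0.07 in papilloma (adjusted p = 0.925).

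Few of the genes named as paralogues were called higher. Of the 9, 2 were called higher in carcinoma and 3 in papilloma, against 51 and 53 of the other 58 members. Over all genes the shares called higher were 18.7% and 17%. Several of the 9 gave weak signal. Rpl3l, Rpl10l and Rpl32l exceeded 6.85, the array-wide probe set median, in 0 of 15 arrays, Rpl22l1 in 1 and Rpl39l in 5. Rps4l did so in 13, and Rpl7l1, Rpl6l and Rps27l in all 15. The part of weak signal in this contrast was not tested. Rpl22 binds RNA in the large subunit, and Rpl22l1, known to replace it in some cells, is held down by it. Rpl22 was at 8.13, 8.12, 8.03, 8.03 and 8.02 in normal samples, 8.92, 8.86, 8.91, 8.96 and 9.0 in papilloma, and 8.90, 8.82, 8.88, 8.97 and 8.80 in carcinoma. Rpl22l1 was at 6.34, 6.38, 6.62, 6.52 and 7.02, then 5.82, 6.19, 6.47, 6.43 and 6.35, then 6.20, 6.16, 6.06, 6.09 and 6.34, in the same order of groups.

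Rpl22 rose by 0.81 in carcinoma and 0.87 in papilloma. Rpl22l1 fell by 0.41 on the log2 scale in carcinoma (SE 0.14, adjusted p = 0.0271) and measured -0.33 in papilloma (adjusted p = 0.0808). The carcinoma call was lost without normal sample 3 or 5 or carcinoma 3 or 4, at -0.46 to -0.30 over all single-array omissions. The difference between the pair, Rpl22l1 minus Rpl22 in each array, changed by -1.22 in carcinoma and -1.19 in papilloma, and neither tumour type overlapped normal tissue. Each passed a two-sided exact permutation test of 5 against 5 arrays (adjusted p = 0.0204 over 18 tests, 6 pairs in 3 comparisons), whose smallest raw p is 0.00794.

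Rpl22l1 was above 6.85, the median of all probe sets on the array, in 1 of 15 arrays, so its signal was not shown to stand above background, and the pair difference holds chiefly the rise of Rpl22. Differences of other pairs were tested the same way. Rpl3l, the striated muscle form of Rpl3, measured -0.18 in carcinoma and -0.06 in papilloma, while Rpl3, a protein at the peptidyl transferase centre, rose by 0.63 and 0.83. The pair differed by -0.80 and -0.89 (adjusted p = 0.0204 for both), and Rpl3l was above 6.85 in 0 of 15 arrays, so the same limit holds. Rps4l, which RefSeq lists as a transcribed pseudogene, was above 6.85 in 13 of 15 arrays and differed from Rps4x by -0.83 and -0.97 (adjusted p = 0.0204 for both). Rpl7l1, a factor of early large subunit assembly, rose itself, by 0.55 and 0.61, but less than Rpl7 (1.04 and 1.01): the pair differed by -0.50 (adjusted p = 0.0204) and -0.39 (adjusted p = 0.0357). With the mean of all Rpl7 probe sets in place of the brightest, that difference was -0.050 and -0.037 (adjusted p = 0.813 and 0.83), and with the Rpl7 set on the gene's own chromosome, an alternative added after the data were seen, it turned to 0.40 and 0.32 (adjusted p = 0.0816 and 0.143). Its direction thus rests on the choice of probe set, and in papilloma it lost its call without papilloma 2, 4 or 5 (adjusted p = 0.0536).

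No such difference passed for Rpl39l, a form known from testis, against Rpl39 (-0.21 and -0.13, adjusted p = 0.27 and 0.438), nor for Rps27l against Rps27 (-0.13 and 0.07, adjusted p = 0.299 and 0.782). Rps27l is a p53 target in human cells. It was at 9.93, 9.79, 9.75, 9.72 and 9.86 in normal samples, 9.97, 9.93, 9.94, 10.09 and 10.03 in papilloma, and 9.92, 9.90, 9.84, 9.79 and 9.76 in carcinoma. All papillomas were above the carcinomas, by small steps. Rps27l was 0.19 higher in papilloma than in normal tissue (SE 0.06, adjusted p = 0.0324, lost on leaving out any of 5 arrays, up to 0.0854), 0.03 in carcinoma (adjusted p = 0.755), and -0.15 in carcinoma against papilloma (adjusted p = 0.139).

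The remaining paralogue names fell apart. Rpl32l, near the floor of the array at 4.39 to 4.92 in normal tissue, fell by 0.51 on the log2 scale in carcinoma (adjusted p = 0.025) and by 0.80 in papilloma (adjusted p = 0.00135), and Rpl10l, a testis form of Rpl10, measured -0.04 and 0.14 (adjusted p = 0.852 and 0.522). The Rpl32l carcinoma call was lost without normal sample 4 or 5 or carcinoma 4, over a range of -0.58 to -0.39. Rpl6l, which RefSeq lists as a pseudogene of Rpl6, rose by 0.94 and 0.999 (adjusted p = 7.88e-08 and 4.7e-08). Pseudogene and parent share sequence, and the probes need not tell them apart.

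Carcinoma and papilloma, which differ by the floxed p53 alleles, differed little in ribosomal protein mRNAs. The median difference over the 67 members was -0.02, beside -0.03 over all genes. By limma no member was called higher in carcinoma (6.24% of all genes were) and 4 were called lower (5.17% of all genes). At an unadjusted p under 0.05, 1 member was higher and 7 were lower, and with an unpooled variance 0 were called higher and 1 lower. All 5 carcinoma arrays lay above all 5 papilloma arrays in 0 members (4.52% of all genes) and below them in 5 (3.39% of all genes). The 95% interval of the difference lay within 0.5 log2 units of 0 for 62 of 67 members, a bound chosen after the values were seen, and the other 5 were Rpl32l, Rpl37a, Rps7, Rps13 and Rps29.

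The 4 called lower were Rpl5, Rpl13, Rpl37a and Rps9. Rps9, an early-assembling protein of the small subunit body, was at 11.87, 11.73, 11.87, 11.86 and 11.83 in papilloma and 11.61, 11.59, 11.63, 11.55 and 11.58 in carcinoma, beside 11.07, 10.70, 10.85, 10.86 and 10.83 in normal tissue. The 3 groups did not overlap. Rps9 fell by 0.24 from papilloma to carcinoma (SE 0.07, adjusted p = 0.0296), Rpl5 by 0.31 (SE 0.08, adjusted p = 0.0232), Rpl37a by 0.46 (SE 0.13, adjusted p = 0.033) and Rpl13 by 0.30 (SE 0.09, adjusted p = 0.0387). For Rps9, Rpl13 and Rpl37a the carcinoma value was still called above normal tissue.

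These 4 calls are near the threshold. Single-array omissions left 0 to 5 members called lower: 0 without papilloma 3 or 5, 1 without carcinoma 1 or papilloma 1, and 2 without carcinoma 2 or papilloma 4. Over them the adjusted p reached 0.0666 for Rpl5 (-0.34 to -0.28), 0.0686 for Rps9 (-0.27 to -0.23), 0.0771 for Rpl37a (-0.54 to -0.33) and 0.0968 for Rpl13 (-0.35 to -0.26). With probe sets of several symbols admitted, Rpl37a measured 0.023 (adjusted p = 0.915) and Rpl5 -0.41 (adjusted p = 0.189), and Rpl13 lost its call too. With chromosome shifts removed, Rpl5 and Rpl13 lost their calls. Among the 28 settings, the call was lost in 18 for Rpl13, 10 for Rpl37a, 7 for Rps9 and 5 for Rpl5.

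Rps13, a small subunit protein at the subunit interface, had the largest difference of any member, 2.82 in carcinoma against normal (SE 0.91, adjusted p = 0.0217), and it did not behave like the rest. Its values were 8.62, 9.95, 6.45, 6.50 and 8.90 in normal samples, 8.34, 8.10, 6.52, 11.26 and 7.95 in papilloma, and 8.09, 11.54, 11.76, 11.54 and 11.55 in carcinoma. Values near 6.5, near 8 to 9 and above 11 occurred, and the groups overlapped. The call was lost without normal sample 3 or 4 or carcinoma 3 (2.41 to 3.52 over all omissions, adjusted p to 0.061). Papilloma measured 0.36 (adjusted p = 0.823), and carcinoma minus papilloma 2.46 (adjusted p = 0.0979), which passed without carcinoma 1 or papilloma 4 (3.16 and 3.17, adjusted p = 0.0261 and 0.0249).

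Other probe sets listing Rps13 did not share this pattern. A set shared with pseudogene names, brightest of them, was at 11.39, 10.51, 11.42, 11.40 and 10.21 in normal tissue and 12.25, 12.25, 8.79, 11.97 and 9.01 in carcinoma, a difference of -0.13 (adjusted p = 0.899). In papilloma it was at 11.95 to 12.24. A dimmer set overlapped between carcinoma and normal tissue, at 6.23 to 7.06 in normal samples and 6.99 to 7.53 in carcinomas. In papilloma that set was at 7.12 to 7.74, above all normal samples. A set shared with the small nucleolar RNA Snord14a, which lies within the gene, was at 6.10 to 6.71 in normal samples, 7.77 to 8.96 in papilloma and 7.90 to 8.75 in carcinoma, with no overlap between tumours and normal tissue. The level of Rps13 mRNA is therefore uncertain here.

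Ribosomal protein genes have many processed copies in the genome, and where a probe set was placed bears on what it measures. Probe set identifiers on this array run along the chromosomes. The neighbours of a set, 10 on each side in identifier order, were taken as settled where at least 80% lay on 1 chromosome. Among 20614 genes with a single set and settled neighbours, that chromosome was the gene's own in 99.956%. For 44 members the chosen set, the brightest of the gene, had settled neighbours on the gene's own chromosome. In 19 it had neighbours on another chromosome, as a set placed on a copy would, and in 4 the neighbours settled nothing. In the 44, 31 were called higher in carcinoma and 34 in papilloma (medians 0.58 and 0.62), and in the 19, 18 and 18 (medians 0.87 and 0.94).

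With the brightest set on the gene's own chromosome, which 63 members have, 45 were called higher and 3 lower in carcinoma, and 48 and 1 in papilloma, with medians of 0.61 and 0.63. This setting, added after the data were seen, replaced the set of 19 members (15 with a set on another chromosome and the 4 unsettled ones). All 19 replacing sets were dimmer, which follows from choosing the brightest set of each gene at first. Of them, 13 were called higher in both tumour types where 18 of the replaced sets were. Rpsa (1.57 and 1.64), Rps24 (1.48 and 1.37) and Rpl3 (0.94 and 1.07) kept a rise of that size. Rplp0 gave 0.62 and 0.95, Rps26 0.36 and 0.49, Rps19 0.52 and 0.47, and Rpl13 0.43 and 0.71, all called, while the Rpl13 difference between the tumour types was -0.28 (adjusted p = 0.139). Rpl19 measured -0.23 in carcinoma (adjusted p = 0.0186). No call remained for Rps18 (0.14 in both, adjusted p = 0.326 and 0.344), Rps3a1 (-0.01 and -0.02), nor for Rpl7 in carcinoma (0.15, adjusted p = 0.27). Rpl41, not called with either set, measured 0.01 in carcinoma. Rps24, Rps3a1, Rpl19, Rpl29 and Rpl41 were picked out after their values were seen.

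The own-chromosome set of Rpl29, a surface heparin-binding as well as ribosomal protein, set carcinoma apart. It was at 9.59, 8.90, 8.94, 8.78 and 9.16 in normal samples, 9.16, 9.17, 9.42, 11.16 and 9.44 in papilloma, and 10.86, 11.50, 11.25, 11.45 and 11.45 in carcinoma. Papilloma 4 lay with the carcinomas and the other papillomas with normal tissue. That set gave 2.23 in carcinoma (SE 0.31), 0.60 in papilloma (adjusted p = 0.164) and 1.63 between the tumour types (adjusted p = 0.003), where the brightest set gave 0.87, 0.99 and -0.12. Papilloma 4 was also the papilloma with Rps13 above 11.

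Across all 108 single-symbol probe sets of the members, 97 had a higher mean in both tumour types. The share over all probe sets is not given here. Of the 108, 10 sets (in 3 members) hold values identical to another set of the gene, so they are not separate measurements. Of the 25 members with several sets, 21 were higher in both tumour types by every set, and the exceptions were Rpl3, Rpl19, Rpl41 and Rps3a1. The 21 include Rpl23a, whose 2 sets gave the same change. The 12 members read only by sets with several symbols moved with the rest: 10 were called higher in carcinoma and 11 in papilloma. Rps2, a protein at the mRNA entrance, differed most among them (3.05 and 2.59, SE 0.20), through a set shared with predicted genes. Rps21 fell by 0.43 from papilloma to carcinoma (adjusted p = 0.0271).

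The size of the change varied with the signal of the probe set. All 22 members at 11 to 13 in normal tissue were called higher in both tumour types (medians 0.88 and 0.96), as were 11 and 12 of the 12 members at 9 to 11 (1.03 and 1.06). At 7 to 9 the counts were 11 and 13 of 18 (0.48 and 0.54), and under 7, 6 and 6 of 11 (0.38 and 0.31). The 4 members at 13 and over, Rpl4, Rpl21, Rpl41 and Rps6, had medians of 0.31 and 0.29, where the highest value of any array was 14.48 to 14.58. Rpl41 was at 13.88 to 13.97 in normal tissue and 13.88 to 14.01 in papilloma. Weak and very strong probe sets can both compress a difference, and their part here was not tested.

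**Figure D4:**
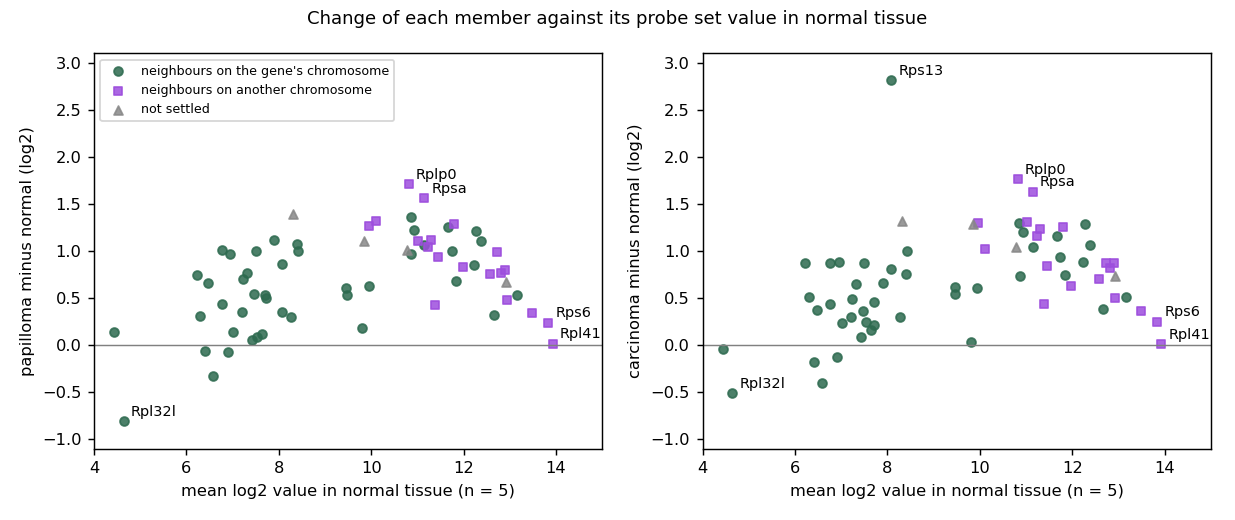
Log2 difference from normal tissue against the mean normal log2 value of the probe set, 1 point per member, for papilloma (left) and carcinoma (right); colour and shape give where the neighbours of the set lie. All 22 members at 11 to 13 lie above 0. The 4 members at 13 and over (Rpl4, Rpl21, Rpl41 and Rps6) change by 0.02 to 0.54 in papilloma and 0.01 to 0.52 in carcinoma. Rps13 lies apart in carcinoma.

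Of the 8 members called in neither tumour type, 4 carry paralogue names (Rpl3l, Rpl10l, Rpl39l and Rps4l), and the others were Rps27, Rpl30, Rpl39 and Rpl41. Rps27 was at 7.51 to 7.78 in normal samples, 7.44 to 8.37 in papilloma and 7.72 to 7.91 in carcinoma, and measured 0.16 and 0.12 (adjusted p = 0.383 and 0.571). With sets of several symbols, Rps27 measured 0.46 in carcinoma (adjusted p = 0.00212) and 0.35 in papilloma, and Rpl39 0.34 and 0.41. Rpl30 was also higher by such sets: the brightest had a normal mean of 11.64, against 12.46 (papilloma) and 12.65 (carcinoma). Its dimmer sets of that kind went from 9.97 to 10.90 and 11.14, and from 6.87 to 8.49 and 8.53, papilloma first. For Rps27, Rpl30 and Rpl39 the lack of a change thus depends on the probe set. The spread within groups was small. The median SD of a member was 0.14 in normal samples, 0.08 in papilloma and 0.12 in carcinoma, beside 0.12, 0.15 and 0.19 over all genes.

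Genes of the machinery that builds ribosomes rose as well, and their difference from the ribosomal proteins was not tested. Of 43 ribosome biogenesis genes, 39 were called higher and 1 lower in carcinoma, and 40 and 1 in papilloma, with medians of 1.12 and 1.05. Polr1b, the second largest subunit of RNA polymerase I, rose by 1.99 and 1.98, and Polr1a, the largest, fell by 0.50 and 0.52 on the log2 scale. Chaperones and importins of ribosomal proteins were called higher in 10 and 9 of 12 (medians 0.74 and 0.73), led by Grwd1, a chaperone of Rpl3 (1.65 and 1.54). In carcinoma against papilloma the biogenesis median was 0.03. Mitochondrial ribosomal proteins, taken by name, were called higher in 38 of 71 in carcinoma and 39 in papilloma, with 5 and 3 lower and medians of 0.27 and 0.33, and their difference from the cytosolic set was not tested.

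Translation factors rose in part. Of 31 initiation factors, 20 were called higher and 4 lower in carcinoma and 21 and 1 in papilloma (median 0.48 in both), among them Eif3b (0.92 and 0.99), while Eif4a2 fell by 0.61 on the log2 scale in carcinoma. Elongation and termination factors were called higher in 8 and 9 of 12, among them Eef1b2 (1.17 and 1.29) and Eef1e1 (1.29 and 1.23). The 16 further genes known for a TOP tract, of which 4 are also among the initiation and 5 among the elongation factors and 1 is the ribosomal protein gene Fau, were called higher in 13 and 14 cases (medians 0.68 in both), and Npm1, a nucleolar chaperone, rose by 1.12 and 1.13. Fau measured 0.10 in carcinoma (adjusted p = 0.255) and 0.21 in papilloma (adjusted p = 0.0181). Of 15 mTORC1 and TOP regulators, 8 and 7 were called higher, with medians of 0.23 and 0.19, led by Eif4ebp1, the translation repressor (1.78 and 1.21).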

How the data were processed

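Values were deposited by the authors as log2 expression per probe set; the submitters' processing notes name RMA and Affymetrix Expression Console without versions. RMA gives all arrays 1 intensity distribution, which removes a global change in RNA content. The genome build used for the probes was not given in the sources used here; array number, not read depth, limits precision. Of 41345 probe sets, 23521 had exactly 1 symbol; the set with the highest mean stood for each of 22180 genes. All 15 arrays entered 1 limma 3.58.1 fit (R 4.3.3; lmFit and eBayes, group as the only term), with two-sided p-values adjusted by Benjamini-Hochberg over all genes and a threshold of 0.05. Paralogue differences were tested by exact permutation in SciPy 1.17.1. Members and lists were chosen with earlier results of these data known. Named members are paralogues, partners, stalk, 5S and X-linked proteins, Rps6, Rps19, Rpsa and, per comparison and subunit, up to 4 largest rises and falls; others were chosen after their values were seen. Scripts were tested on simulated data. Promoter windows and chromosomes are RefSeq's (GRCm38.p6). The alternatives were 12 other settings, each array left out in turn, and 1 setting added after seeing the data (own-chromosome probe sets).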

Additional observations from a re-analysis of the deposited data

Results flagged for a closer look

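In each group of 5 arrays, the highest and lowest value of the 34 named members and of the member median were set against the others by Dixon's criterion. A single array stood apart in 6 of 105 such groups of values, and chance flags about 1 in 20. Rpl5 was low in normal sample 5 (7.43, the others 7.72 to 7.83). Rpl7 was low in papilloma 3 (11.58, the others 11.81 to 11.86) and in carcinoma 5 (11.56, the others 11.85 to 11.92). Rps9 was low in papilloma 2 (11.73, the others 11.83 to 11.87). Rps27 was high in papilloma 1 (8.37, the others 7.44 to 7.69). Rps13 was low in carcinoma 1 (8.09, the others 11.54 to 11.76).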

How the results depend on the processing

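The median member change kept its direction in carcinoma and papilloma against normal under all 28 settings. Members called higher numbered 45 to 67 in carcinoma and 48 to 70 in papilloma; the extremes are the added own-chromosome setting (63 members) and the admission of several-symbol sets (79). Omitting single arrays gave 52 to 55 and 53 to 56. The 2 members called lower in carcinoma became 0 with dim genes left out or an unpooled variance and 0 to 2 on omitting single arrays; the 1 in papilloma became 0 with dim genes left out. Replicate numbers did not pair the arrays (15 same-number pairs, r = -0.10 to 0.14); with a replicate block the counts were 54 higher and 2 lower in carcinoma, 54 and 2 in papilloma, and 0 and 3 between the tumour types. There, the 4 called lower became 1 with all probe sets or an unpooled variance, 2 with several-symbol sets or chromosome shifts removed, and 0 to 5 on omitting arrays; 1 was called higher with the mean of a gene's sets, several-symbol sets, own-chromosome sets, and 0 to 1 on omitting arrays. Rps13 in carcinoma turned to -0.13 and Rpl37a between the tumour types to 0.023 with several-symbol sets. Rpl7l1 minus Rpl7 became -0.050 in carcinoma and -0.037 in papilloma with the mean of a gene's sets, turned to 0.40 and 0.32 with own-chromosome sets, and was -0.46 to -0.36 in papilloma on omitting arrays. Between the tumour types, omitting arrays gave -0.36 to -0.10 for Rps27l minus Rps27 and 0.050 to 0.14 for Rpl3l minus Rpl3. The cause of these moves was not tested. Probe sets near the floor or the ceiling limit what changes can be seen.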
